A study of Mus musculus with 9 samples.

Results

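The heart draws most of its energy from fatty acids, yet it takes up glucose continuously and switches towards it under load, insulin or low oxygen. The 35 genes described here encode the proteins along that route: the transporters that bring glucose in and carry lactate across the membrane, the enzymes of glycolysis, the pyruvate dehydrogenase complex with kinases that switch it off, and the enzymes that build and break down glycogen. They were chosen by gene symbol, with no measured value in the rule, but with earlier results of these data known. Of the 35, 33 had a row in the deposited count table. The other 2, the aldolase gene Aldoc and the enolase gene Eno1, were not analysed here except for their upstream sequences. The 33 genes stood among 13192 genes tested, and all 33 passed the filter on low counts.

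RNA-seq counts came from the heart apex of male C57BL/6J wild-type mice. The AAV-Osm group (5 libraries) received 1e+11 particles of an adeno-associated virus carrying oncostatin M, a cytokine of the interleukin-6 family, and the AAV-Null group (4 libraries) received the same dose of a vector named as null in the labels. Both were injected into the right gastrocnemius, a leg muscle, at 10 weeks of age, and hearts were taken 12 weeks later. No source used here gives the promoter that drives the transgene, so the heart was measured at a distance from the injected muscle with no statement of which cells made the protein. The transcript of Osm itself was not analysed here. Nothing states outright that each library came from its own mouse. The p-values weigh the difference between the groups against the spread of these 9 libraries within groups, which may be technical.

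Total counts ran from 11841106 to 30625134 per library. Values below are levels in CPM per kb, that is, CPM scaled by TMM factors and divided by the gene's summed exon length in kilobases, which allows genes to be compared with each other. All 10 cardiomyocyte markers were in the table, and their summed CPM ran from 99810 to 132686 in AAV-Osm hearts and from 98924 to 133583 in AAV-Null hearts. The 5 of 9 skeletal muscle markers in the table summed to at most 9.59 CPM in any library; Myh1, Myh2, Myh4 and Pvalb were not analysed here. AAV-Null 1 and 2 were the most alike pair of libraries, with a chi-square of 6.52 per degree of freedom over genes, which is beyond sampling noise, and 0 pairs held identical values. Liver markers summed to 3.16 to 50.5 CPM in AAV-Osm hearts and 4.41 to 155 CPM in AAV-Null hearts, with AAV-Null 3 and 4 highest. Epicardial and mesothelial markers summed to 5.94 to 45.2 CPM in AAV-Osm hearts and 41.6 to 135 CPM in AAV-Null hearts.

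Some enzymes of this route come as isoforms from separate genes, and their heart and skeletal muscle forms are driven from other promoters than the forms most cells use. Phosphoglycerate mutase shows the widest gap here: the muscle form Pgam2 stood 127 to 442 times above the widely expressed form Pgam1 in the same library, per length. Pgam1 has processed pseudogene copies and the counting of reads with several matches is not given, so the size of this ratio is uncertain. Lactate dehydrogenase is also shown. Its heart form Ldhb stood 4.73 to 9.72 times above Ldha, the form favoured in glycolytic tissue. This was not the next widest gap, as Slc2a4 stood 24.8 to 56.9 times above Slc2a1. Pdk1, a kinase that inactivates pyruvate dehydrogenase, is added because it had the smallest p of the 33 genes. The 250 bases before the RefSeq start of each (GRCm38.p6) end at the base before the gene's first base in the deposited table. Capitals mark matches on either strand. The motifs searched were the E-box written CACGTG and the shorter run ACGTG that lies inside it and is close to the core of hypoxia response elements. Also searched were the muscle E-box, written CAGCTG, and the TATA box, written TATAAA, together with the consensus of the muscle factor MEF2.
Pgam2, chr11:5803797-5804046, minus strand: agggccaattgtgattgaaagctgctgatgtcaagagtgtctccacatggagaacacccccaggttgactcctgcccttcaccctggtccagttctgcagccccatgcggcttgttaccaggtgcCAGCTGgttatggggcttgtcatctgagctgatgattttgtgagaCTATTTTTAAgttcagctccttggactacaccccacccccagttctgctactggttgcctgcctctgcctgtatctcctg
Pgam1, chr19:41911621-41911870, plus strand: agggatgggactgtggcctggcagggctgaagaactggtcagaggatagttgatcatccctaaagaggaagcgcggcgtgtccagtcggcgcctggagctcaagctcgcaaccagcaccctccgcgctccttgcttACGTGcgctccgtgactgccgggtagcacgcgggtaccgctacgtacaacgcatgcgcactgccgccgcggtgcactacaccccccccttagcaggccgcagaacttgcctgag
Ldhb, chr6:142507958-142508207, minus strand: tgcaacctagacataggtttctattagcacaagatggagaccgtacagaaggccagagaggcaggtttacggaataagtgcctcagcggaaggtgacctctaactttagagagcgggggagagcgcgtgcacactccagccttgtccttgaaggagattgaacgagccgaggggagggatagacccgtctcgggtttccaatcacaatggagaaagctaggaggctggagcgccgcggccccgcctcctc
Ldha, chr7:46845554-46845803, plus strand: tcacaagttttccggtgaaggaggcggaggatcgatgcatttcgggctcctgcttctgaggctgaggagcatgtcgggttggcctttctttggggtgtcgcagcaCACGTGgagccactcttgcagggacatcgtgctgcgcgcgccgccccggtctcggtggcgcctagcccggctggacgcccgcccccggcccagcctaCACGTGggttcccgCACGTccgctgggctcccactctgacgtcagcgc
Pdk1, chr2:71872974-71873223, plus strand: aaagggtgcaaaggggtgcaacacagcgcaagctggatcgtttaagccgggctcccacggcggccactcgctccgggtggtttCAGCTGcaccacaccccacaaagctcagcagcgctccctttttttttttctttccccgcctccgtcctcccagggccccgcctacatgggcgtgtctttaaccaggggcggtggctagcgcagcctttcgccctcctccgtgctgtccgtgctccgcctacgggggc

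The Pgam2 window held 1 MEF2 consensus match and 1 CAGCTG, and the Pgam1 window held neither. A RefSeq window was available for 34 of the 35 listed genes, all but Slc2a4, and so also for Aldoc and Eno1. Among these 34, Pgam2 was the only gene with a MEF2 match (2.94% of them, against 3.01% of 27025 windows of all genes). The Ldha window held CACGTG at 2 places and ACGTG at 5 positions counting both strands, with overlap between the motifs, whereas the Ldhb window held 0 of the motifs searched. CACGTG stood in 5 of the 34 windows (14.7%, against 6.05% of all windows), those of Ldha, Pfkm, Pfkfb2, Pdk2 and Slc16a1. ACGTG stood in 12 (35.3%, against 16.6%) and CAGCTG in 7 (20.6%, against 12.8%). GGGCGG, the GC box, which is not capitalised above, stood in 17 (50%, against 32.9%). TATAAA stood in 0 of the 34, against 13% of all windows. A match is a description of letters in these windows and no statement about binding, and a missing match covers only these 250 bases.

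Levels of these genes in the heart covered a wide range. Gapdh, whose enzyme reduces NAD+ in glycolysis, was the most abundant member, at 2598 ± 511 CPM per kb in AAV-Osm hearts (SD, n = 5) and 2577 ± 117 in AAV-Null hearts (SD, n = 4). Aldoa, Ldhb, Eno3 and Pgam2 followed, each with group means between 1321 and 1917 CPM per kb. At the other end, the phosphorylase kinase subunit Phka1, the ubiquitous transporter Slc2a1, the mutase Pgam1 and the branching enzyme Gbe1 had group means between 3.16 and 6.27 CPM per kb. Together the 33 genes held 2.29 to 2.67% of the counts of AAV-Osm libraries and 2.33 to 2.52% of the counts of AAV-Null libraries. Gapdh, Aldoa, Tpi1, Pgk1, Pgam1 and Ldha belong to genes with processed pseudogene copies in the mouse genome. How reads with several matches were counted is not given in the sources used here. Their levels, and the ratios and shares built on them, are therefore uncertain.

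**Figure D1:**
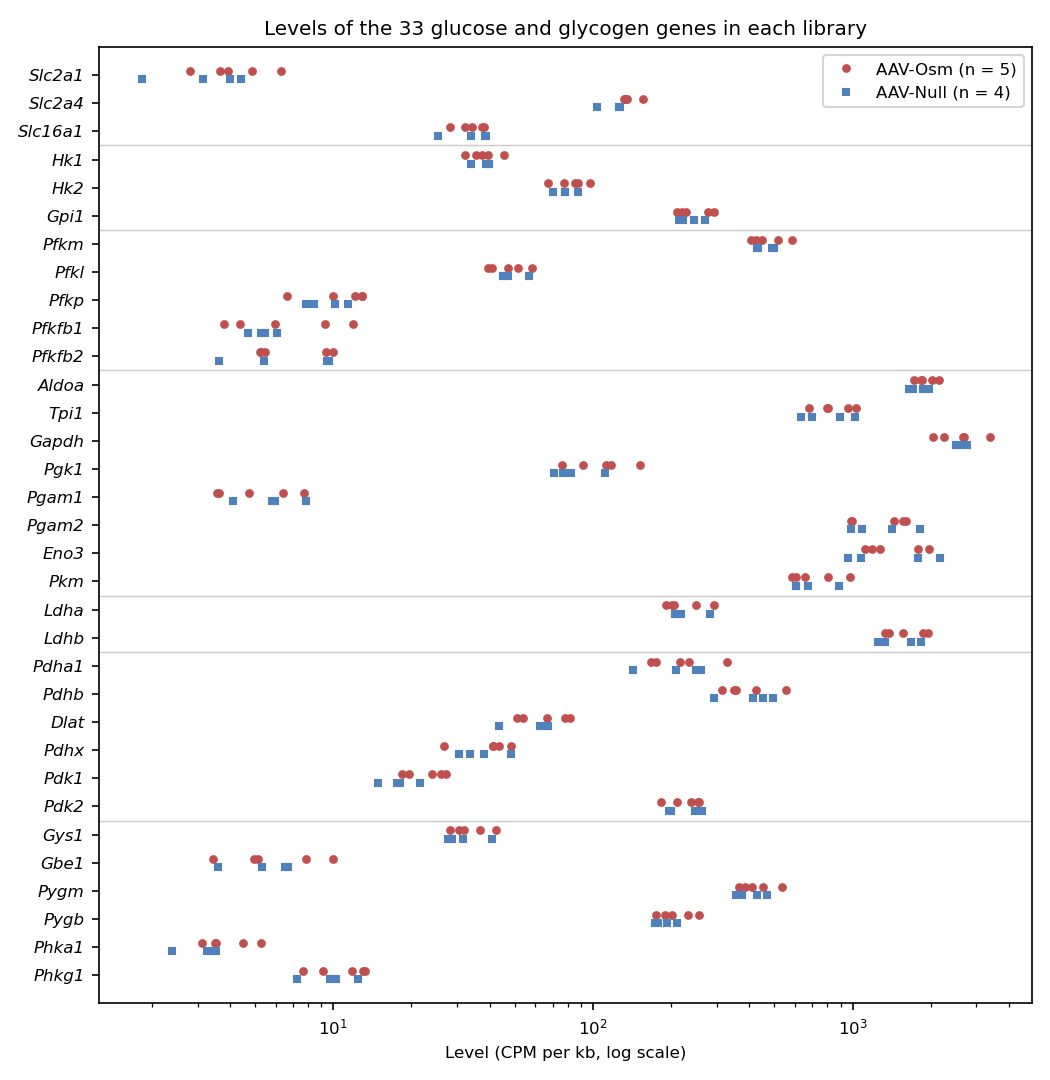
Level of each of the 33 genes in each library (x axis, CPM per kb on a log scale; y axis, genes in order of role, grey lines between roles). Circles are AAV-Osm libraries and squares AAV-Null libraries; Slc2a4 is the only gene whose circles and squares do not overlap, with AAV-Osm at 132 to 156 and AAV-Null at 104 to 127.

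The route from glucose to pyruvate, and the glycogen enzymes beside it, did not differ detectably between AAV-Osm and AAV-Null hearts. In edgeR's quasi-likelihood test with Benjamini-Hochberg adjustment over 13192 genes, 0 of the 33 genes rose (0.0834% of all genes did), 0 fell (0.0379% of all genes) and 33 did not pass an adjusted p of 0.05, a threshold that 0.121% of all genes passed in either direction. DESeq2 called 0 of the 33 (0.402% of all genes) and limma-voom with quality weights 0 (1.29% of all genes). At an unadjusted p under 0.05, 1 of the 33 was higher, Pdk1 (2.89% of all genes), and 0 were lower (3.09% of all genes), where 5.97% of all genes reached that level in either direction. Log2 fold changes, AAV-Osm over AAV-Null, ran from -0.18 (Pgam1) to 0.41 (Pfkfb1). In edgeR their median was 0.08 beside 0.01 over all genes. With quality-weighted limma-voom the median of the 33 genes was 0.20, and the median over all genes with that tool is not given here. Above 0 in edgeR were 25 of the 33, or 75.8%, against 51.9% of all genes. The sign held in all 20 alternative settings for 13 of the 33 genes, and the share above 0 was not tested. In RNA from whole tissue, fewer cells of a type and less RNA per cell cannot be told apart.

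The intervals say how large a difference these libraries could have hidden. For 32 of the 33 genes the 95% interval of the fold change, from the edgeR fit, lay wholly inside a 2-fold change in either direction, as it did for 88% of all genes. For 24 of the 33 it lay inside a 1.5-fold change, against 51.6% of all genes. Pfkfb1, whose interval ran from -0.22 to 1.04 on the log2 scale, was the exception at 2-fold. The widest intervals otherwise belonged to Pfkfb2 (-0.64 to 0.64), Gbe1 (-0.42 to 0.79) and Slc2a1 (-0.22 to 0.94).

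**Figure D2:**
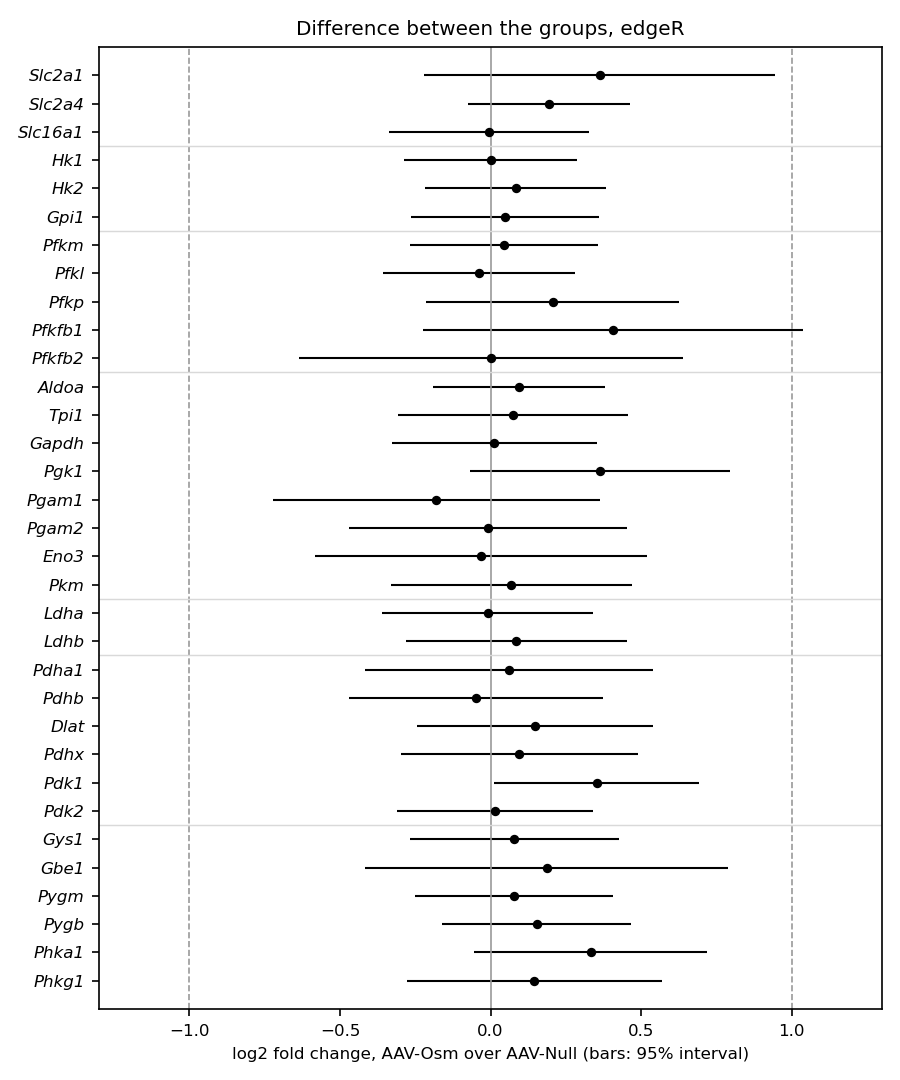
Log2 fold change of each gene, AAV-Osm over AAV-Null (x axis; y axis, genes in order of role), with its 95% interval from the edgeR fit. Dashed lines mark a 2-fold change; the interval of Pfkfb1 reaches 1.04, that of Pdk1 starts at 0.01, and the intervals of the other 32 genes include 0.

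Glucose enters the cardiomyocyte through GLUT4, the insulin-responsive transporter encoded by Slc2a4 (chromosome 11, 69942286 to 69948190, minus strand, mm10), and through GLUT1, encoded by Slc2a1. Slc2a4 had 135, 134, 133, 132 and 156 CPM per kb in AAV-Osm 1 to 5, against 126, 127, 126 and 104 in AAV-Null 1 to 4. Each AAV-Osm library was above each AAV-Null library, which held for 1 of the 33 genes and for 1.05% of all genes, or 2.28% with both directions. The size was small, however: the means were 138 ± 10.3 and 121 ± 11.1 CPM per kb (SD, n = 5 AAV-Osm and 4 AAV-Null), a log2 fold change of 0.19 (95% interval -0.08 to 0.46, edgeR adjusted p = 0.927). AAV-Osm 5 and AAV-Null 4 lay apart from the other libraries of their groups, and with total counts in place of TMM scaling the groups overlapped. Slc2a1 stood far lower, at 4.30 ± 1.33 CPM per kb in AAV-Osm hearts and 3.35 ± 1.14 in AAV-Null hearts (SD, n = 5 and 4), with a log2 fold change of 0.36 (SE 0.27). That direction turned in 2 of 20 alternatives, to -0.08 with quality-weighted limma-voom and to -0.021 without AAV-Null 4 and AAV-Osm 5. Slc16a1, the monocarboxylate transporter MCT1 that moves lactate, was at 34.0 ± 3.94 and 34.1 ± 6.26 CPM per kb (SD, n = 5 AAV-Osm and 4 AAV-Null).

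Hexokinase traps glucose by phosphorylating it, and the heart uses both Hk2, the muscle form, and Hk1. Hk2 averaged 83.1 ± 11.4 CPM per kb in AAV-Osm hearts and 78.4 ± 7.19 in AAV-Null hearts, and Hk1 38.0 ± 5.00 and 38.0 ± 2.78 (SD, n = 5 AAV-Osm and 4 AAV-Null). The log2 fold change of Hk2 was 0.08 (SE 0.14) and that of Hk1 0.00 (SE 0.13). Gpi1, glucose-6-phosphate isomerase, was the most abundant of these 3 genes. It had 229, 277, 293, 220 and 212 CPM per kb in AAV-Osm 1 to 5, against 222, 215, 244 and 270 in AAV-Null 1 to 4, and the groups overlapped throughout. Another gene shares 12.3% of the exon bases of Gpi1.

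Phosphofructokinase commits the sugar to glycolysis, and its muscle subunit Pfkm made up 87.9 to 89.8% of the 3 subunit genes' transcripts per length over the 9 libraries. Pfkm had 407, 517, 584, 449 and 426 CPM per kb in AAV-Osm 1 to 5, against 428, 431, 499 and 487 in AAV-Null 1 to 4. The highest values were in AAV-Osm 2 and 3, and the lowest AAV-Osm library was below all AAV-Null libraries. For the liver subunit Pfkl the log2 fold change was -0.04 (SE 0.15), and for the platelet subunit Pfkp 0.21 (95% interval -0.21 to 0.63), and 15.3% of the exon bases of Pfkp are shared with exons of a neighbouring gene. The bifunctional enzymes that set fructose-2,6-bisphosphate, the activator of phosphofructokinase, varied widely between libraries. Pfkfb2, the heart form, had 5.22, 5.28, 5.44, 9.96 and 9.35 CPM per kb in AAV-Osm 1 to 5, against 9.49, 9.60, 5.43 and 3.61 in AAV-Null 1 to 4. It thus fell into high and low libraries within each group, with a log2 fold change between groups of 0.00 (SE 0.30). Exons of other genes share 14.7% of the exon bases of Pfkfb2. Pfkfb1 had 9.33, 11.9, 5.97, 3.80 and 4.37 CPM per kb in AAV-Osm 1 to 5, against 5.25, 5.47, 4.71 and 6.07 in AAV-Null 1 to 4, so AAV-Osm 1 and 2 carried its fold change of 0.41 on the log2 scale (SE 0.29), which had an adjusted p of 0.934 in edgeR.

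In the lower steps of glycolysis, where triose phosphates are turned to pyruvate with a yield of ATP, 8 genes were tested. Gapdh had 2040, 2243, 2685, 3370 and 2651 CPM per kb in AAV-Osm 1 to 5, against 2498, 2747, 2562 and 2500 in AAV-Null 1 to 4. The AAV-Osm libraries spread over a 1.65-fold range and the AAV-Null libraries over a 1.10-fold range, and the log2 fold change was 0.01 (95% interval -0.33 to 0.35). Pgk1, phosphoglycerate kinase, had the largest difference of the 8, at 110 ± 28.4 CPM per kb in AAV-Osm hearts and 85.2 ± 17.9 in AAV-Null hearts (SD, n = 5 and 4; log2 fold change 0.36, 95% interval -0.07 to 0.80, edgeR adjusted p = 0.888). The log2 fold changes of Aldoa, Tpi1 and Pkm, which encode aldolase, triose phosphate isomerase and pyruvate kinase, were 0.10 (SE 0.13), 0.08 (SE 0.18) and 0.07 (SE 0.19). Those of Pgam2 and Eno3, the muscle forms of mutase and enolase, were -0.01 (95% interval -0.47 to 0.45) and -0.03 (-0.58 to 0.52). Another gene shares 12.9% of the exon bases of Pkm.

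Lactate dehydrogenase interconverts pyruvate and lactate. Ldhb had 1568, 1952, 1861, 1328 and 1385 CPM per kb in AAV-Osm 1 to 5, against 1257, 1329, 1685 and 1831 in AAV-Null 1 to 4. The groups covered much the same range, and the log2 fold change was 0.09 (95% interval -0.28 to 0.45). Ldha averaged 228 ± 42.8 CPM per kb in AAV-Osm hearts and 229 ± 35.1 in AAV-Null hearts (SD, n = 5 and 4). Its share of the pair, per length, was 12.6 ± 3.27% in AAV-Osm hearts and 13.2 ± 1.92% in AAV-Null hearts (SD, n = 5 and 4). Shares within a library do not depend on scaling between libraries, and in none of the 8 isoform families measured this way did the groups separate. Pgam1 made up 0.437 ± 0.254% of the mutase pair in AAV-Osm hearts and 0.477 ± 0.170% in AAV-Null hearts, and Hk1 31.4 ± 2.64% and 32.7 ± 1.09% of the hexokinase pair (SD, n = 5 AAV-Osm and 4 AAV-Null). Slc2a1 made up 2.99 ± 0.722% of the 2 glucose transporters in AAV-Osm hearts and 2.65 ± 0.735% in AAV-Null hearts (SD, n = 5 and 4).

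**Figure D3:**
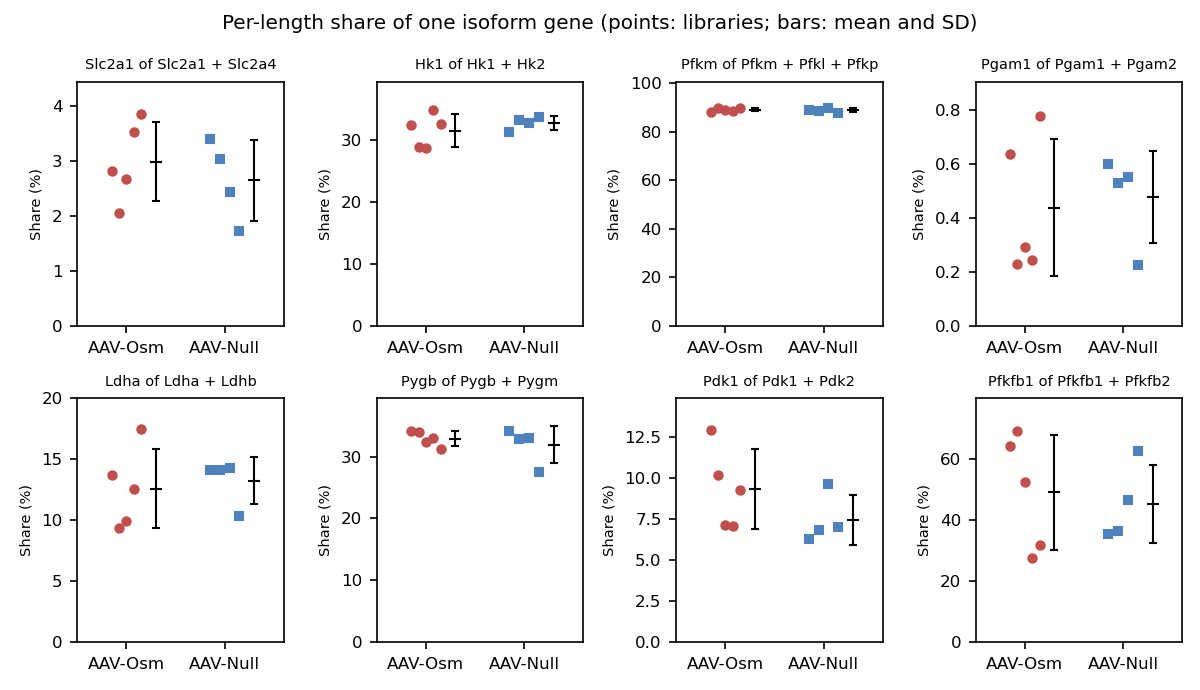
Share of the first-named gene among the isoform genes in each panel title, per length (y axis, percent, from 0), in AAV-Osm (circles) and AAV-Null (squares) libraries, with the mean and SD beside the points. The groups overlap in all 8 panels; Pfkfb1 spans 27.6 to 69.3% in AAV-Osm and 35.6 to 62.7% in AAV-Null libraries.

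Pyruvate dehydrogenase sends pyruvate into mitochondrial oxidation, and its kinases inhibit it by phosphorylation. Pdhb, the E1 beta subunit, had 356, 314, 349, 425 and 556 CPM per kb in AAV-Osm 1 to 5, against 453, 494, 415 and 292 in AAV-Null 1 to 4, with a log2 fold change of -0.05 (95% interval -0.47 to 0.37). Pdha1, Dlat and Pdhx, the E1 alpha subunit, the E2 acetyltransferase and the E3-binding protein, showed log2 fold changes of 0.06 (SE 0.22), 0.15 (SE 0.18) and 0.10 (SE 0.18). Of the exon bases of Pdha1, 21.8% are shared with exons of a neighbour on the other strand, and the strand setting of the counting is not given in the sources used here. Pdk1 (chromosome 2, 71873224 to 71903858, plus strand, mm10), whose upstream window is printed above, had 27.2, 24.0, 18.4, 19.5 and 26.1 CPM per kb in AAV-Osm 1 to 5, against 17.6, 18.1, 21.5 and 14.9 in AAV-Null 1 to 4. AAV-Null 3 lay above AAV-Osm 3 and 4, so the groups overlapped. Its log2 fold change was 0.35 (95% interval 0.01 to 0.69), and the adjusted p in edgeR was 0.802. Pdk2 stood 6.72 to 14.9 times above Pdk1 in the same library. It had 183, 211, 239, 257 and 255 CPM per kb in AAV-Osm 1 to 5, against 263, 246, 201 and 196 in AAV-Null 1 to 4, and the groups covered the same range.

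Glycogen is the heart's sugar store, built by glycogen synthase and the branching enzyme and broken down by phosphorylase, which phosphorylase kinase switches on. All 6 genes tested here had a log2 fold change above 0, from 0.08 to 0.33, but 0 passed in edgeR and 0 had an unadjusted p under 0.05. With single libraries left out, the sign turned for Gys1, Gbe1 and Pygm. Pygm, the muscle phosphorylase, had 364, 451, 536, 409 and 386 CPM per kb in AAV-Osm 1 to 5, against 374, 356, 427 and 470 in AAV-Null 1 to 4. Its brain-form paralog Pygb, at 210 ± 32.9 CPM per kb in AAV-Osm hearts and 189 ± 17.0 in AAV-Null hearts (SD, n = 5 and 4), made up about the same part of the pair in both, 32.9 ± 1.23% and 31.9 ± 2.98% (SD, n = 5 AAV-Osm and 4 AAV-Null). Gys1, the muscle glycogen synthase, and Gbe1 had log2 fold changes of 0.08 (SE 0.16) and 0.19 (SE 0.28). Those of the phosphorylase kinase subunits Phka1 and Phkg1 were 0.33 (SE 0.18, edgeR adjusted p = 0.883) and 0.14 (SE 0.20), and 26.1% of the exon bases of Phkg1 are shared with exons of a neighbouring gene.

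What did vary was the libraries within each group. Among the AAV-Osm libraries the highest value of a gene was 1.18 times (Slc2a4) to 3.13 times (Pfkfb1) its lowest, and among the AAV-Null libraries 1.10 times (Gapdh) to 2.66 times (Pfkfb2). Eno3, described here after its values were seen, had 1270, 1780, 1968, 1192 and 1120 CPM per kb in AAV-Osm 1 to 5, against 959, 1077, 1781 and 2178 in AAV-Null 1 to 4. Its AAV-Null libraries alone spread over a 2.27-fold range, from AAV-Null 1 to AAV-Null 4. Pdha1 went the other way in the same hearts, at 234, 175, 167, 216 and 328 CPM per kb in AAV-Osm 1 to 5 and 249, 260, 208 and 143 in AAV-Null 1 to 4, with its lowest value in AAV-Null 4 and its highest in AAV-Osm 5. Of the 33 genes, 10 were at their highest in AAV-Osm 3 and 7 in AAV-Osm 5, while 9 were at their lowest in AAV-Null 4. The summed cardiomyocyte markers were 99810, 132686, 128100, 125140 and 102689 CPM in AAV-Osm 1 to 5, against 98924, 103861, 114945 and 133583 CPM in AAV-Null 1 to 4, so the 4 libraries highest in Eno3 were among the 5 highest in these markers, while AAV-Osm 4 was high in the markers and low in Eno3. The part of that difference in the levels was not tested.

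With AAV-Null 3 and AAV-Null 4 both left out, only AAV-Null 1 and AAV-Null 2 remained in that group. The log2 fold change of Eno3 was then 0.53 and that of Pgam2 0.35, and 0 of the 33 genes passed. The libraries left out were the highest AAV-Null libraries for both genes, so a rise in these values follows from the choice. In that setting the groups did not overlap for 5 of the 33 genes (Slc2a4, Aldoa, Eno3 and Pdk1 higher, Slc16a1 lower), where 16.3% of all genes did not overlap.

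**Figure D4:**
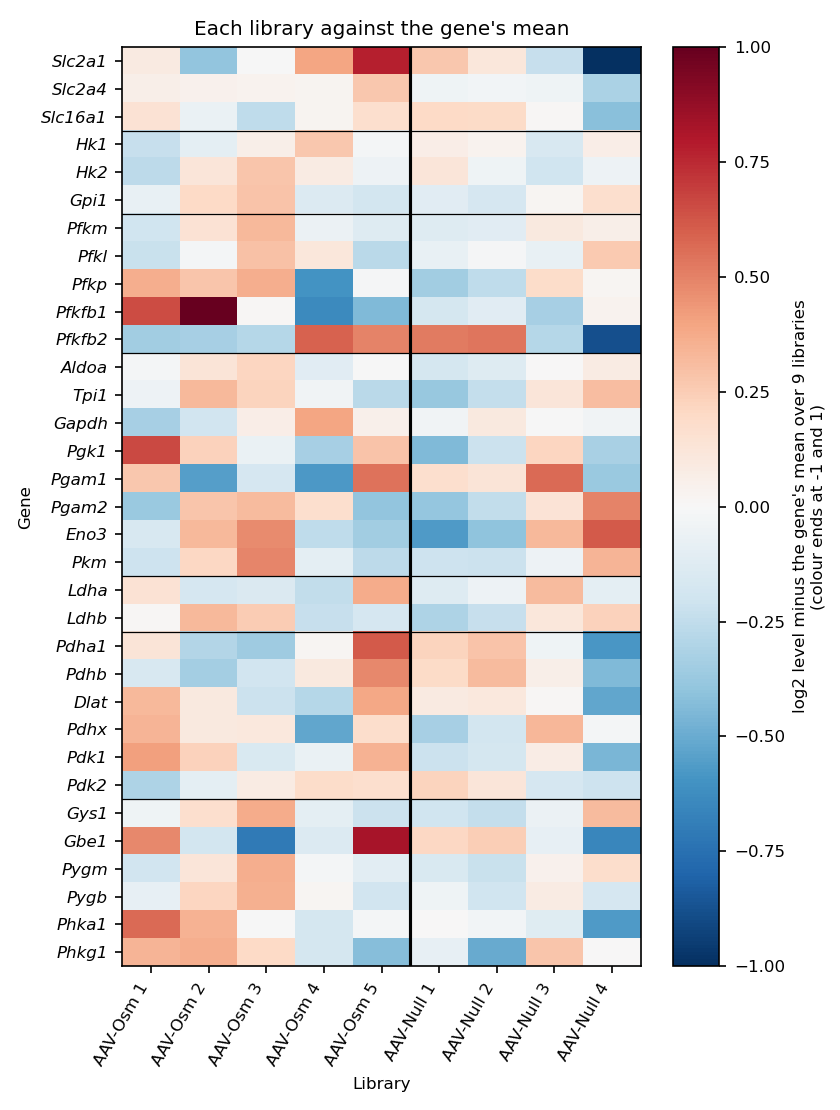
Log2 level of each gene (rows, in order of role) in each library (columns, AAV-Osm left and AAV-Null right of the line), minus the gene's mean over the 9 libraries; red is above and blue below the mean. Red and blue cells occur on both sides of the line; AAV-Osm 3 holds the highest value of 10 genes and AAV-Null 4 the lowest of 9.

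Other genes of glucose handling, from a list of further transporters, glycolytic and pyruvate enzymes, glycogen regulators, the pentose phosphate route and transcriptional or signalling regulators, were read from the same fit. Of 81 listed, 74 were tested; in edgeR 0 rose and 0 fell, and 5 had an unadjusted p under 0.05 (background 5.97%), 3 of them higher (Pfkfb3, Txnip and Pdp2) and 2 lower (Ppp1r3c and Stbd1). The median log2 fold change was 0.04, and the groups did not overlap for 3 of the 74 genes (background 2.28%). None of the 8 pentose phosphate genes reached an unadjusted p under 0.05, with log2 fold changes from -0.23 to 0.14.

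Txnip encodes thioredoxin-interacting protein, which promotes removal of glucose transporters from the cell surface. It had 110, 142, 173, 187 and 172 CPM per kb in AAV-Osm 1 to 5, against 81.4, 99.2, 83.8 and 64.4 in AAV-Null 1 to 4. Each AAV-Osm library was above each AAV-Null library. The log2 fold change was 0.93 (SE 0.18); the adjusted p was 0.114 in edgeR, 0.000368 with DESeq2 and 0.0228 with quality-weighted limma-voom, so the call depends on the tool. Of the exon bases of Txnip, 21.6% are shared with an antisense gene. Summed transcripts of 12 circadian clock genes separated the same way. The sums were 392 to 519 CPM in AAV-Osm hearts and 278 to 340 CPM in AAV-Null hearts. The list holds genes that went in opposite directions, so the sum does not describe each gene. Dbp had 80.9 to 151 CPM in AAV-Osm and 26.1 to 62.7 CPM in AAV-Null libraries. Arntl went the other way, at 2.15 to 4.23 and 4.70 to 10.3 CPM. In edgeR, 2 of the 12 passed, beside 0.121% of all genes. The part of the clock genes in the level of Txnip was not tested.

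Pfkfb3, an inducible form of the bifunctional enzyme, had 1.42, 1.07, 0.728, 0.807 and 1.10 CPM per kb in AAV-Osm 1 to 5, against 0.645, 0.717, 0.510 and 0.518 in AAV-Null 1 to 4. The groups did not overlap, with a log2 fold change of 0.79 (95% interval 0.31 to 1.27) and an adjusted p of 0.487 in edgeR, though its level was far below that of Pfkfb1 and Pfkfb2. Ppp1r3c, a glycogen-targeting subunit of protein phosphatase 1 that favours glycogen synthesis, had 28.5, 23.0, 37.4, 30.8 and 33.7 CPM per kb in AAV-Osm 1 to 5, against 39.1, 42.5, 51.9 and 47.1 in AAV-Null 1 to 4. Here each AAV-Osm library was below each AAV-Null library, with a log2 fold change of -0.56 (95% interval -0.89 to -0.22) and an adjusted p of 0.475 in edgeR.

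Pdk4, the fasting- and fatty acid-induced kinase of pyruvate dehydrogenase, had 67.5, 76.0, 51.7, 113 and 118 CPM per kb in AAV-Osm 1 to 5, against 85.4, 94.3, 28.0 and 24.3 in AAV-Null 1 to 4. The AAV-Null libraries formed a high and a low pair, with 3 of the 5 AAV-Osm values between them and 2 above both, and the 95% interval of the log2 fold change ran from -0.29 to 1.40. Its value of 0.56 turned to -0.004 with quality-weighted limma-voom and to -0.075 without AAV-Null 3 and 4. Pdp2, a phosphatase that reactivates pyruvate dehydrogenase and is described here after its values were seen, had 8.48, 12.9, 10.9, 11.1 and 6.07 CPM per kb in AAV-Osm 1 to 5, against 5.20, 5.25, 5.53 and 9.49 in AAV-Null 1 to 4. AAV-Null 4 lay above AAV-Osm 1 and 5; the log2 fold change was 0.63 (SE 0.24), with an adjusted p of 0.690 in edgeR and 0.0187 in limma-voom with quality weights.

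**Figure D5:**
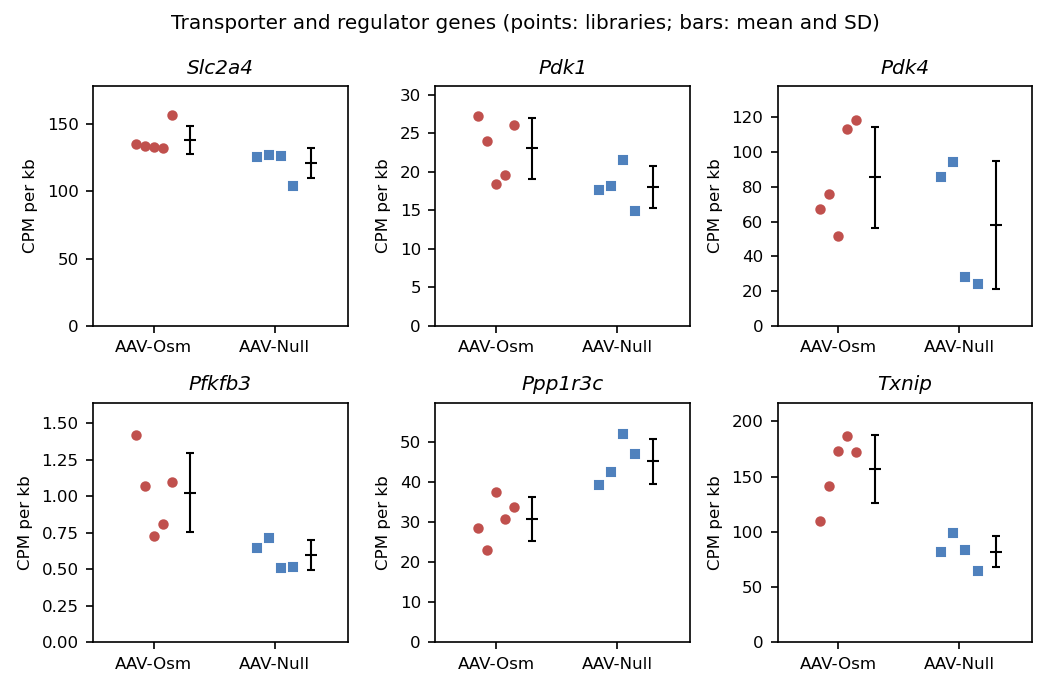
Levels of 6 transporter and regulator genes (y axis, CPM per kb, from 0) in AAV-Osm (circles, left) and AAV-Null (squares, right) libraries, with the mean and SD beside the points. Groups do not overlap for Slc2a4, Pfkfb3 and Txnip, higher in AAV-Osm, and for Ppp1r3c, lower in AAV-Osm; for Pdk1 and Pdk4 they overlap.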

How the data were processed

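RNA was sequenced from 9 heart apex libraries, 5 AAV-Osm and 4 AAV-Null. The library numbers within each group were assigned here, in the order of the deposited samples. The authors deposited unnormalized counts for each gene, next to the gene's length in bases. The submitters' processing notes name STAR 2.5.2b, featureCounts, Subread 1.5.1 and the mm10 build, without saying which did what. Strandedness, gene annotation and the handling of multi-mapping reads were not given in the sources used here. From the table, 4141 lines without a gene name were left out. The remaining 13192 genes were tested with edgeR 4.0.16 (R 4.3.3): TMM factors, filterByExpr (0 genes removed), robust quasi-likelihood F test, two-sided, group as the only term, Benjamini-Hochberg adjustment over all genes, threshold 0.05. The SE comes from the unshrunken coefficient and its F statistic. Alternatives were DESeq2 1.42.0, limma 3.58.1 (voom with and without quality weights), other scaling factors, other filters, dispersions not robust, and libraries left out; the code was tested on simulated data. Exon overlaps were read from GENCODE M21.

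Members and lists were chosen with earlier results of these data known. Values in every library are given for members past the adjusted threshold, with an unadjusted p under 0.05 or with groups that do not overlap, for Slc2a4, Pdk2 and the most abundant gene per length of each role; Pfkfb1, Pfkfb2, Eno3 and Pdha1 are given after their values were seen. Other pathway genes are named with an unadjusted p under 0.05 and no overlap, and Pdk4 and Txnip always. Isoform shares for the aldolase and enolase families were not computed because the levels of Aldoc and Eno1 were not analysed here. Total counts per library ran from 11841106 to 30625134.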

Additional observations from a re-analysis of the deposited data

Results flagged for a closer look

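In 94 groups of 4 or 5 libraries, 6 held a library farther from the others than Dixon's 95% critical value, where chance gives about 1 in 20. For Slc2a4, AAV-Osm 5 was high at 156 CPM per kb, with the other AAV-Osm libraries at 132 to 135, and AAV-Null 4 was low at 104, with the other AAV-Null libraries at 126 to 127. In AAV-Null 3, Hk1 was low at 33.9 CPM per kb (others 38.8 to 39.7) and Ldha was high at 282 (others 206 to 218). In AAV-Null 4, Pdp2 was high at 9.49 CPM per kb (others 5.20 to 5.53), and the Ldha share of the lactate dehydrogenase pair was low at 10.3% (others 14.1 to 14.3%).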

How the results depend on the processing

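Over 20 alternatives the 33 genes gave 660 values, of which 0 passed the threshold and 0 exceeded a 2-fold change; 13 genes kept the sign of their log2 fold change throughout. No paired analysis was run because the labels give no pairing between the groups. Where a value below changed, the cause was not tested.

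Over all genes, 11 were higher and 5 lower in edgeR, against 24 and 29 with DESeq2, 79 and 91 with quality-weighted limma-voom, and 3 and 2 with at least 5 CPM in at least 4 libraries. Leaving out single libraries gave 4 to 7 higher and 0 to 6 lower genes, and leaving out AAV-Null 4 with AAV-Osm 5 gave 3 lower. Of the other pathway genes, 0 were higher in edgeR, 1 with DESeq2 (Txnip), 2 with quality-weighted limma-voom (Txnip and Pdp2) and 1 without AAV-Null 4 and AAV-Osm 5 (Pdp2). The median log2 fold change of the 33 genes was 0.20 in limma-voom with quality weights. Groups did not overlap, with AAV-Osm higher, for 0 of the 33 genes with total counts, for 1 to 2 with single libraries left out (2, Slc2a4 and Pdk1, without AAV-Null 3, background 4.34%) and for 4 without AAV-Null 3 and 4, where 1 was lower.

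The sign of some log2 fold changes turned, most of them small; the larger ones were Slc2a1 (0.36 in edgeR) and Pdk4 (0.56 in edgeR). With quality weights in limma-voom, the values were Slc2a1 -0.080, Pfkl 0.046, Pfkfb2 -0.49, Gapdh -0.074, Pgam2 0.33, Eno3 0.47, Pdha1 -0.30, Dlat -0.030, Pdk2 -0.13, Gbe1 -0.24 and Pdk4 -0.004. Without weights they were Slc16a1 0.007, Gapdh -0.006, Pgam2 0.003 and Eno3 0.015. With total counts they were Pfkfb2 -0.048, Gapdh -0.024 and Pdk2 -0.027. Without AAV-Null 4 and AAV-Osm 5 they were Slc2a1 -0.021, Pfkl 0.10, Pfkfb2 -0.34, Gapdh -0.010, Pgam2 0.27, Eno3 0.29, Pdha1 -0.27, Dlat -0.065, Pdk2 -0.090 and Gbe1 -0.20. Without AAV-Null 3 and 4 they were Pfkl 0.036, Pfkfb2 -0.44, Gapdh -0.013, Pgam2 0.35, Eno3 0.53, Ldha 0.10, Pdha1 -0.18, Dlat -0.007, Pdk2 -0.15, Gbe1 -0.068 and Pdk4 -0.075. Leaving out single libraries gave ranges across 0 for Slc16a1 (-0.12 to 0.062), Gpi1 (-0.022 to 0.12), Pfkm (-0.037 to 0.10), Pfkl (-0.12 to 0.045), Pfkfb2 (-0.21 to 0.19), Tpi1 (-0.027 to 0.21), Gapdh (-0.10 to 0.088), Pgam2 (-0.13 to 0.18), Eno3 (-0.20 to 0.20), Pkm (-0.063 to 0.21), Ldha (-0.11 to 0.10), Pdha1 (-0.11 to 0.17), Pdhb (-0.19 to 0.048), Pdk2 (-0.049 to 0.094), Gys1 (-0.015 to 0.21), Gbe1 (-0.037 to 0.34) and Pygm (-0.015 to 0.15).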
